A study of Homo sapiens with 2 samples.

Results

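The 9 genes described here encode non-muscle myosin heavy chains (MYH9, MYH10), actin crosslinkers (FLNA, ACTN1, ACTN4) and proteins of focal adhesions (VCL, TLN1, ZYX, PXN). They were picked out by gene symbol, as 9 of the 57773 genes in the authors' table. All 9 were found there, and all 9 passed a minimum of 20 reads over both libraries, as 10081 genes did. RNA was measured in spheroids, which are rounded cell aggregates, of MDA-MB-231, a line from a triple-negative tumour of the human breast. The Control group was 1 spheroid sample labelled as the control, and the treated group was 1 spheroid sample that received TGS24, a compound with a code name for which no structure is given. Both shared the same line and the same serum-containing medium, and the sources used here name no dose and no length of treatment. The series states that it examined expression of MAPK12 pathway genes after the compound.

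Focal adhesions are the sites where integrins in the cell membrane are tied to actin filaments. Talin binds the integrin tail and recruits vinculin, filamin and alpha-actinin crosslink the filaments, non-muscle myosin II pulls on them, and zyxin and paxillin are adaptors that gather signalling proteins at the site. In MDA-MB-231 cells, which are mesenchymal and invasive, this machinery is known for its use in migration.

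The deposited values were read counts divided by a size factor, and whole reads were recovered from them. The Control library held 8570632 reads and the TGS24 library 16145121. The small RNA gene RN7SL1 accounted for 41.1% in Control and 31.6% in TGS24. Reads in protein-coding genes made up 41.3% and 54.1%. With 1 library a group there is no replicate check, so p-values are left out, and what is compared throughout is a pair of libraries and not a pair of conditions. Each log2 ratio is TGS24 over Control after TMM scaling, with a 95% interval on read pairs that covers counting error only. A gene is called higher or lower, by at least 2-fold, if the log2 ratio reached 1 in either direction with an interval that did not hold 0. In bulk RNA, fewer cells that express a gene and less of its RNA per cell cannot be told apart.

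Of the cell line's markers, 8 of 10 could be matched and 7 were measured. None was called higher and 5 were called lower (AXL, MMP14, ANXA2, LGALS1 and TMSB10), against 12.7% and 6.44% of all measured genes. The other 2, CAV1 and EGFR, were not called, at log2 ratios of -0.29 and -0.31. With ratios centred on genes of like GC content, 4 were called lower, MMP14 dropping out. The authors' normalized values of the 8 matched genes summed to 3799 in Control and 1710 in TGS24, and sums below are also over all matched genes of a list. VIM and CD44 were left out because the authors' tables disagree on them. Of the 10 matched fibroblast and smooth muscle markers, which summed to 193 and 176, 6 were measured, none was higher and 1, LMOD1, was lower. In that list TAGLN had 0 reads in Control and CNN1 had 0 in TGS24. MYH11, the myosin heavy chain of that list, had its most reads, 96 and 236, or 93.0 and 119 of the sums. It was not called, at a log2 ratio of 0.35 (-0.14 to 0.87), or 0.63 (0.13 to 1.15) with GC centring. The 6 platelet markers, 2 of them measured, summed to 24.2 and 19.7, with GP1BB and ITGB3 at 0 in both libraries. The 7 matched luminal epithelial markers, 3 of them measured, summed to 95.9 and 57.7, with KRT8 at 0 in Control. The 8 red cell and leukocyte markers, 7 of them measured, summed to 5760 and 6330, of which the haemoglobin gene HBB alone was 4709 and 5289. In this list 1 marker, ALAS2, was at least 2-fold lower. With GC centring, neither LMOD1 nor ALAS2 was called. The part of these cell types in the results was not tested.

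Of the 9 genes, MYH10 was 2.73-fold higher in the TGS24 library, ZYX was 2.68-fold lower, and the other 7 were not called. Over all measured genes, 12.7% were called higher and 6.44% lower, so 1 of 9 in each direction is near the background. These shares are 1277 genes higher and 649 lower, a split that was 1563 and 436 with median-of-ratios scaling and 535 and 602 with ratios centred on genes of like GC content. The median log2 ratio of the 9 genes was -0.54, against -0.00 over all measured genes, whose 10th and 90th percentiles were -0.99 and 1.27. Ratios were below 0 for 7 of the 9 genes and for 50.2% of all measured genes. The interval lay wholly below 0 for 6 of the 9 and wholly above 0 for 2, MYH10 and VCL, against 17.3% and 23.7% of all measured genes. Intervals narrow with read depth, and 3179 of the measured genes had fewer than 50 reads. These shares are therefore not at like depth, and no excess can be read from them. Of the 9 genes, all but ZYX and PXN had at least 1000 reads over both libraries. At that depth, the shares over 2047 genes were 27.7% called higher and 1.95% called lower, and their median log2 ratio was 0.38. The 9 genes together took 0.446% of protein-coding reads in Control and 0.296% in TGS24. Protein-coding reads were themselves 41.3% of the Control library and 54.1% of the TGS24 library. In the authors' normalized units, the 9 genes summed to 15289 in Control and 13084 in TGS24.

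**Figure D1:**
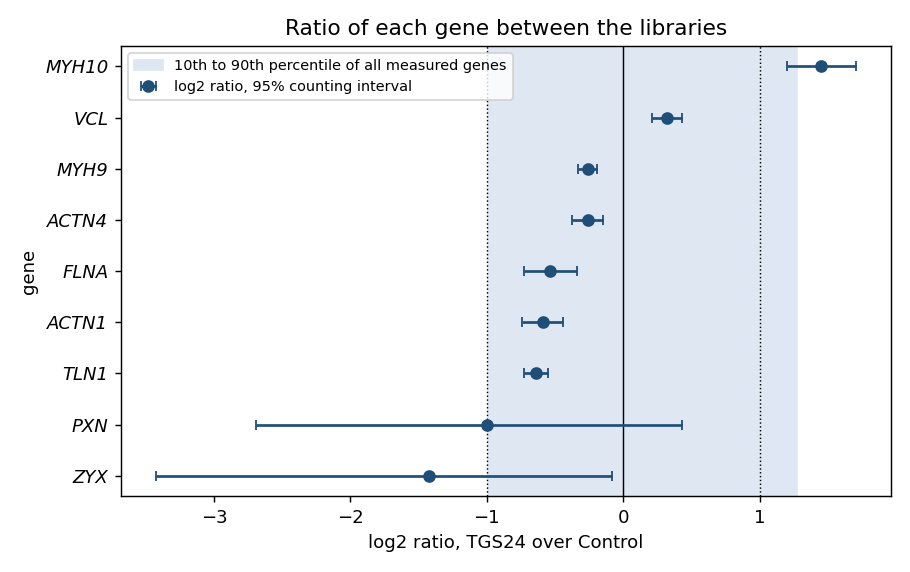
Log2 ratio of TGS24 over Control (horizontal axis) for each of the 9 genes, with bars for the 95% counting interval, dotted lines at a log2 ratio of 1 in size, and the band from the 10th to the 90th percentile of all measured genes shaded. MYH10 stands to the right of the band at 1.45, 5 genes with narrow intervals lie between -0.64 and -0.26, and the intervals of ZYX and PXN are the widest of the 9.

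Myosin heavy chains form the motor of non-muscle myosin II. MYH9 encodes the heavy chain of myosin IIA, the isoform tied to fast contraction at the cell front, and MYH10 that of myosin IIB, which stays longer on actin. The proteins are close relatives, and the transcripts can be told apart by silent differences. In the coding sequences of GENCODE v29, 1539 of 1959 aligned residues were identical (78.6%). Of these 1539 residues, 769 used the same codon in both genes. The stretch below of 33 codons for the same amino acids shows how the transcripts differ in bases while the protein does not. Capitals mark the 11 differing bases. The MYH9 stretch lies in exon 13 at chr22:36314220-36314318 on the minus strand of GRCh38, coding bases 1381 to 1479. The MYH10 stretch lies in exon 14 at chr17:8542182-8542280 on the minus strand, coding bases 1432 to 1530.

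MYH9: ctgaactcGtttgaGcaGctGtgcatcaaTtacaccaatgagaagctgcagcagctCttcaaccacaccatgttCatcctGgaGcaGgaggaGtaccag
MYH10: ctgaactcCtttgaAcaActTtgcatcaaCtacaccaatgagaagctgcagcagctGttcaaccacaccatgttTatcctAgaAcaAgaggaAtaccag

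The MYH9 stretch held 50.5% G and C and the MYH10 stretch 43.4%. Over the whole coding sequence, the third codon position was G or C in 84.5% of MYH9 codons and 56.5% of MYH10 codons. Among the codons for identical residues, 518 ended in G or C in MYH9 and in A or T in MYH10, and 92 were the other way round.

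MYH9 (ENSG00000100345) had 5538 reads in the Control library and 8908 in TGS24, or 5366 and 4507 in the authors' normalized units. The TGS24 library was slightly lower, by a log2 ratio of -0.26 (95% interval -0.33 to -0.19), and 38% of all measured genes had a lower ratio. MYH10 (ENSG00000133026) had 315 reads in Control and 1659 in TGS24, or 305 and 839 normalized. It was higher in the TGS24 library by a log2 ratio of 1.45 (1.20 to 1.70), a fold of 2.73 (2.30 to 3.25), and 93.0% of measured genes had a lower ratio. The amount of MYH10 relative to MYH9 was larger in the TGS24 library. For every 100 MYH9 reads there were 5.69 MYH10 reads in Control and 18.6 in TGS24. The log2 ratio of these ratios, in which library scaling cancels, was 1.71 (1.45 to 1.97). MYH9 remained the larger of the pair per transcript length, 18.1 times the level of MYH10 in Control and 5.52 times in TGS24. Another heavy chain of non-muscle myosin II, MYH14, was a small share of the class in both libraries, at 0.451 and 0.471 reads per 100 MYH9 reads.

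The 250 bases before the start site are shown for both heavy chain genes because they are where the pair differs in a common promoter element. Capitals mark GGGCGG on either strand (CCGCCC on the other), the core of the GC box bound by Sp1-family factors. The sequences are from RefSeq on GRCh38.p14, at chr22:36387968-36388217 for MYH9 and chr17:8630726-8630975 for MYH10, both on the minus strand.

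MYH9: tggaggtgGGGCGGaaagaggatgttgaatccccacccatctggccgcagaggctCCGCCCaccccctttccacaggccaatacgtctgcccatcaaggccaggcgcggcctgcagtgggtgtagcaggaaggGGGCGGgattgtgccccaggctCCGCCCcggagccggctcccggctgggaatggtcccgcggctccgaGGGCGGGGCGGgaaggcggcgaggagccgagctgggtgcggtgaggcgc
MYH10: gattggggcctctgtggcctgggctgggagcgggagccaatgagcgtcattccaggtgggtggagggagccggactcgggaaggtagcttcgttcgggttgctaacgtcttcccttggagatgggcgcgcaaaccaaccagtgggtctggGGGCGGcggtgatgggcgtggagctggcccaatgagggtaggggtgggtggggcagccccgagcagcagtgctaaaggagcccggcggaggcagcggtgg

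The MYH9 window held 6 matches, of which the last pair overlap, and the MYH10 window held 1. Of 35116 promoter windows of 250 bases before and 50 after a start in the same table, 45% held at least 1 match on either strand, as did 10 of the 14 windows of the 9 genes. Among the other genes, the window held 1 match in TLN1, 3 in VCL and 5 each in FLNA and ZYX. At most 5 matches fell in a window of ACTN1, 6 in ACTN4 and 8 in PXN. A match describes letters only, and its part in the ratios was not tested.

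The partners and regulators of myosin II, a list of 19 genes of which 17 were measured, had 4 genes called higher, 1 called lower and 12 not called, and the median log2 ratio was -0.25. Shares over all measured genes were 12.7% and 6.44%, and at 1000 reads or more 27.7% and 1.95%. With GC centring 1 of the 4, CDC42BPA, was still called. The 4 higher genes act on myosin light chain phosphorylation. ROCK1 and ROCK2, the kinases downstream of RhoA, had 387 and 752 reads in Control and 1807 and 3879 in TGS24. Their log2 ratios were 1.27 (1.05 to 1.51) and 1.42 (1.26 to 1.58). CDC42BPA, a kinase of the same family that is activated by Cdc42, had 515 and 2409 reads and a log2 ratio of 1.28 (1.08 to 1.48). PPP1CB, the catalytic subunit of the myosin phosphatase, had 884 and 4326 reads and a log2 ratio of 1.34 (1.20 to 1.5). RHOC, a GTPase close to RHOA, was at the edge of the lower call, with 41 and 38 reads and a log2 ratio of -1.01 (-2.07 to -0.12). RHOA itself had the most reads of the list, 9470 and 15136, with a log2 ratio of -0.27 (-0.32 to -0.22).

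The crosslinkers FLNA, ACTN1 and ACTN4 were all lower in the TGS24 library by less than 2-fold. FLNA (ENSG00000196924), the main filamin, joins actin filaments into networks and binds integrin tails. It had 768 Control reads and 1020 TGS24 reads (744 and 516 normalized), a log2 ratio of -0.54 (-0.73 to -0.34). ACTN1 (ENSG00000072110), an alpha-actinin that bundles stress fibres, had 1327 and 1698 reads (1286 and 859 normalized) and a log2 ratio of -0.59 (-0.74 to -0.44). ACTN4 (ENSG00000130402), its closest relative, had 1955 and 3142 reads (1894 and 1590 normalized) and a log2 ratio of -0.26 (-0.38 to -0.15).

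The alpha-actinins share 86.1% of 892 aligned residues, and 513 of 768 identical residues used the same codon, and no source used here says how reads that match both were assigned. The stretch of 33 codons below, for the same amino acids in both, shows this closeness, with capitals on the 4 differing bases. It spans exons 17 and 18 at chr14:68880070-68880869 (minus strand) for ACTN1 and chr19:38725844-38726995 (plus strand) for ACTN4, GRCh38, intron included in the coordinates but not in the letters.

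ACTN1: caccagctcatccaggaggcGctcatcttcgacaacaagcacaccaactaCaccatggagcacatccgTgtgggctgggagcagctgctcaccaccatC
ACTN4: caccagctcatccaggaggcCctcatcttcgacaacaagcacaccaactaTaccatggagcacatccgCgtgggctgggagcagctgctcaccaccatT

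For every 100 ACTN1 reads there were 147 ACTN4 reads in Control and 185 in TGS24, a log2 ratio of ratios of 0.33 (0.14 to 0.52). Per transcript length, ACTN4 stood at 1.12 times the level of ACTN1 in Control and 1.41 times in TGS24. The balance of ACTN4 to ACTN1 thus differed by 1.26-fold, less than the 3.27-fold of MYH10 to MYH9.

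In the list of filamin and alpha-actinin relatives and partners, 9 of 12 genes were measured, 2 were at least 2-fold lower and none higher, and the median log2 ratio was -0.54. Over all measured genes 6.44% were called lower and 12.7% higher. With GC centring neither of the 2 was called, and PALLD, an actin-bundling protein with 15 and 9 reads, was called lower at -1.65. FLNC, a filamin best known from muscle, had 250 and 220 reads and a log2 ratio of -1.12 (-1.51 to -0.75). ACTN3, the alpha-actinin of fast muscle fibres, had 35 and 29 reads and a log2 ratio of -1.15 (-2.30 to -0.14). FLNC stood at 32.6 reads per 100 FLNA reads in Control and 21.6 in TGS24, a log2 ratio of ratios of -0.59 (-1.03 to -0.16).

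A CArG box, the motif bound by SRF, was found in the windows of ACTN1 and FLNA and of no other gene among the 9. SRF is a transcription factor known for driving actin and adhesion genes with its cofactors MRTFA and MRTFB. These windows of 50 bases (RefSeq, GRCh38.p14) are at chr14:68977708-68977757 for ACTN1 and chrX:154374699-154374748 for FLNA, both on the minus strand, with the motif in capitals starting 171 and 94 bases before a listed start.

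ACTN1: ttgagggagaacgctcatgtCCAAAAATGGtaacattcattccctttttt
FLNA: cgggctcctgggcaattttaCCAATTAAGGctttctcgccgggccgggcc

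Of the 35116 promoter windows, 1.29% held this motif. The ratios of the genes with it were -0.59 and -0.54. The ratios of the genes without it ran from -1.42 in ZYX to 1.45 in MYH10, so most values would lie inside that range. Of all measured genes, 3.25% had a lower ratio than ZYX and 93.0% a lower ratio than MYH10. In ACTN1 the motif was in the window of listed start 3 and not in those of starts 1, 2 and 4. Whether the motif has a part in these ratios was not tested. SRF had 955 and 1779 reads, a log2 ratio of -0.05 (-0.21 to 0.11). MRTFA had 23 and 16 reads and a log2 ratio of -1.33 (-3.03 to -0.12), at least 2-fold lower on few reads, and MRTFB had 8 and 12. MRTFA was not called under 4 of the 11 other settings, GC centring among them. In this list of 3 genes 1 was called lower and none higher, against 6.44% and 12.7% of all measured genes. The median log2 ratio was -0.30.

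VCL and TLN1, which bind each other at the adhesion, differed in direction. TLN1 (ENSG00000137076), the talin that couples integrin tails to actin, had 3969 Control reads and 4902 TGS24 reads (3846 and 2480 normalized). Its log2 ratio was -0.64 (-0.73 to -0.56), and 20.1% of measured genes had a lower one. VCL (ENSG00000035403), vinculin, strengthens the link under load, and had 1869 and 4501 reads (1811 and 2277 normalized). Its log2 ratio was 0.32 (0.21 to 0.43), 1.25-fold higher, and 63.9% of measured genes had a lower one. For every 100 TLN1 reads there were 47.1 VCL reads in Control and 91.8 in TGS24, a log2 ratio of ratios of 0.96 (0.82 to 1.10). This pair was chosen after the values were seen, as were the pairs that follow. TLN2, the second talin, had 5.49 reads per 100 TLN1 reads in Control and 8.34 in TGS24, a log2 ratio of ratios of 0.61 (0.25 to 0.97). In GENCODE v29, 11.1% of VCL's exon bases lie under another gene, AP3M1, which had 968 and 4514 reads and a log2 ratio of 1.27. Exon overlap reached 14.2% for ACTN4, where the neighbour CAPN12 had 4 and 10 reads, and 12.4% for PXN, where PXN-AS1 had 0 in both libraries. The part of overlapping reads in the VCL value was not tested, and no source used here says how strand was handled.

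Of 14 talin and vinculin partners, 12 were measured and none was called in either direction, against 12.7% and 6.44% of all measured genes, and the median log2 ratio was 0.41. RAP1A, a GTPase that activates talin, had the most reads, 1937 and 7096, and a log2 ratio of 0.93 (0.82 to 1.03). With median-of-ratios scaling it was called higher, at 1.07, and with GC centring it was not, at 0.13 (0.03 to 0.24).

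**Figure D2:**
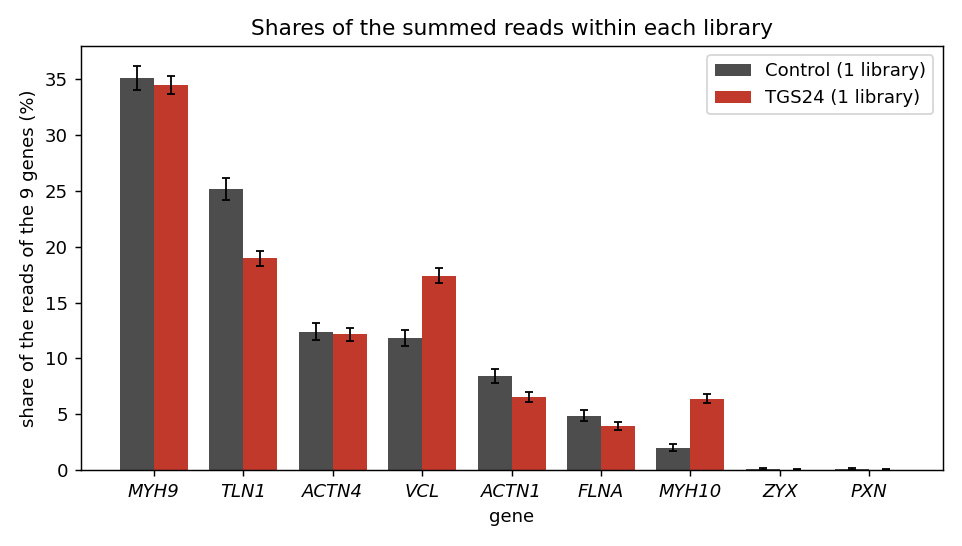
Share of the summed reads of the 9 genes taken by each gene (vertical axis, %) in the Control library and the TGS24 library, with bars for the exact 95% binomial interval, which covers counting error only. VCL went from 11.8% to 17.4% and MYH10 from 2.0% to 6.42%, while TLN1 went from 25.2% to 19.0% and MYH9 stood at 35.1% and 34.4%.

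ZYX and PXN were close to the detection floor in both libraries. ZYX (ENSG00000159840), zyxin, recruits actin-assembly factors to stressed filaments. It had 19 Control reads against 12 TGS24 reads (18.4 and 6.07 normalized). Its log2 ratio was -1.42 (-3.43 to -0.08), which passed the call with an interval that nearly reached 0. It was not called under 4 of the 11 other settings, in which its value, where it had one, was -1.30, -1.28 or -1.03. PXN (ENSG00000089159), paxillin, a scaffold for focal adhesion kinase, had 18 and 16 reads (17.4 and 8.10 normalized). Its log2 ratio was -1.0 (-2.69 to 0.43), and at this depth a difference was not detectable. No order of ZYX against PXN could be read either, at a log2 ratio of ratios of -0.55 (-2.90 to 1.73). Per transcript length, MYH9 stood at 96.2 times the level of ZYX in Control and 245 times in TGS24.

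Among 9 measured genes of the zyxin family and the VASP proteins, 2 were at least 2-fold lower and none higher, against 6.44% and 12.7% of all measured genes, and the median log2 ratio was -0.18. VASP, an actin filament elongation factor that zyxin binds, had 42 and 23 reads and a log2 ratio of -1.70 (-2.91 to -0.66). TRIP6, a zyxin relative, had 551 and 527 reads and a log2 ratio of -1.01 (-1.26 to -0.76). TRIP6 was thus better covered than ZYX, at 37.2 times its level per length in Control and 56.4 times in TGS24. AJUBA, with the most reads of the list, had 595 and 1128 and a log2 ratio of -0.02 (-0.23 to 0.18).

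Of 26 paxillin, focal adhesion kinase and parvin partners, 22 were measured, 3 were called higher and 2 lower, near the 12.7% and 6.44% of all measured genes, and the median log2 ratio was 0.20. CRK, an adaptor that binds phosphorylated paxillin, had the most reads of the list, 3466 and 16168, and a log2 ratio of 1.28 (1.20 to 1.35). CRKL, its relative, had 240 and 937 reads and a log2 ratio of 1.02 (0.73 to 1.32). LIMS1, or PINCH-1, a partner of integrin-linked kinase, had 123 and 721 reads and a log2 ratio of 1.60 (1.20 to 2.01). The lower genes were SRC, a kinase that phosphorylates paxillin, with 148 and 117 reads and a log2 ratio of -1.27 (-1.79 to -0.76), and TNS2, a tensin, with 45 and 34 reads and -1.29 (-2.38 to -0.41). With GC centring, LIMS1, SRC and TNS2 were not called.

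**Figure D3:**
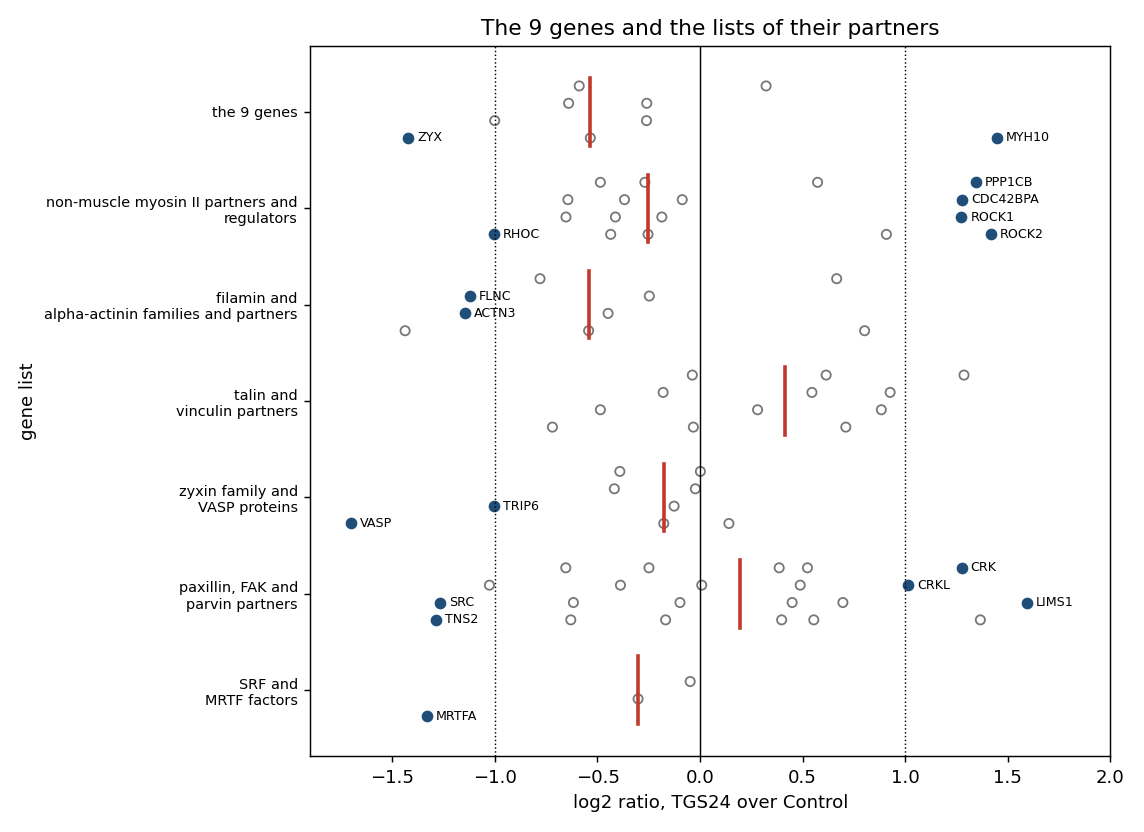
Log2 ratio of TGS24 over Control (horizontal axis) for each measured gene of the 9 and of the 6 lists of partners (rows), with filled points for genes at least 2-fold different whose interval leaves out 0, open points for the rest, and a red bar for each median. The medians run from -0.54 in the filamin and alpha-actinin list to 0.41 in the talin and vinculin list. With GC centring, not drawn here, these medians were -0.38 and 0.18, and the lowest was -0.52 in the zyxin and VASP list.

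Levels between genes were compared per length of the longest protein-coding transcript, as RPKM computed here (reads over transcript length and scaled library size). MYH9 was highest in both libraries, at 86.5 in Control and 72.2 in TGS24. TLN1 followed in Control at 53.1, with ACTN4 at 46.5, ACTN1 at 41.4 and VCL at 34.0. In TGS24 the order below MYH9 changed to VCL at 42.5, ACTN4 at 38.8, TLN1 at 34.0 and ACTN1 at 27.5. The order of VCL and ACTN1 in Control depends on the length used, since the union of all exons gave 22.1 for VCL and 14.7 for ACTN1. By that length VCL was also not second in TGS24, with ACTN4 at 31.6, TLN1 at 29.8 and VCL at 27.6. FLNA stood at 10.6 and 7.34 and MYH10 at 4.79 and 13.1, so their order turned over between the libraries. ZYX, at 0.899 and 0.295, and PXN, at 0.516 and 0.238, were lowest. With 1 library a group, the spread of these levels between samples is unknown.

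**Figure D4:**
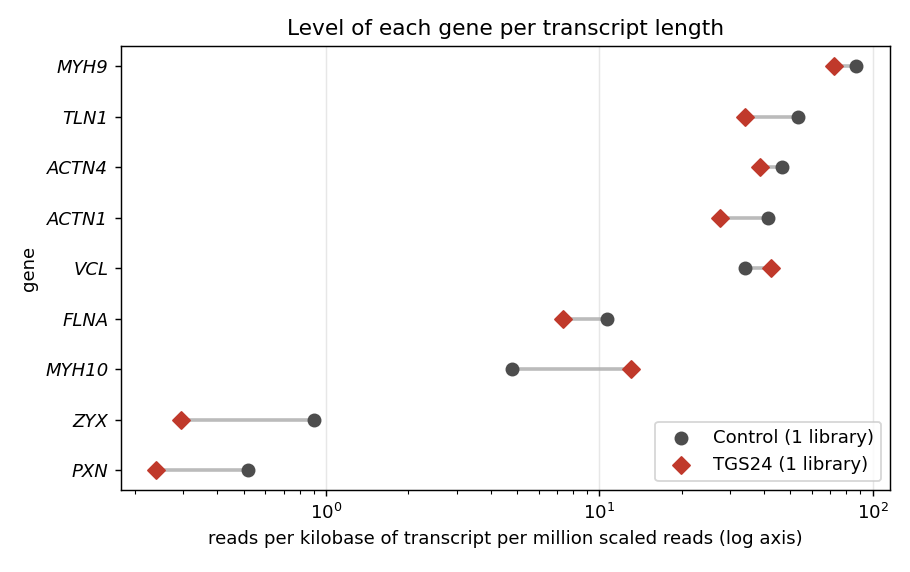
Level of each gene as reads per length of transcript and scaled library size, RPKM (horizontal log axis), with circles for the Control library and diamonds for the TGS24 library. MYH10 moved from 4.79 to 13.1 and VCL from 34.0 to 42.5, and the other 7 genes had the lower value in TGS24.

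The ratio also moved with the base composition of the transcript. Over the 5469 genes that had 100 reads or more, and with genes not being independent replicates, the log2 ratio and the GC content of the longest transcript gave a Spearman rho of -0.68. The 9 genes had a median GC content of 57.7%, against 47.7% over all measured genes. MYH10, at 49.0%, and VCL, at 47.9%, had the lowest GC content of the 9, and they were the genes with ratios above 0. When each ratio was centred on the median of genes of like GC content, the median of the 9 genes went from -0.54 to -0.13. MYH10 stayed at 1.55 (1.30 to 1.80), with 96.8% of its class of 498 genes below it, and VCL at 0.42 (0.31 to 0.53). ACTN1 at -0.31 (-0.46 to -0.16) and TLN1 at -0.29 (-0.37 to -0.20) stayed lower. MYH9 at 0.10 (0.03 to 0.16), ACTN4 at 0.09 (-0.02 to 0.21) and FLNA at -0.13 (-0.33 to 0.06) came close to 0, and the first pair changed sign.

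The pair values kept their direction after the same centring, at 1.45 for MYH10 over MYH9, 0.41 for ACTN4 over ACTN1 and 0.71 for VCL over TLN1. Among the called partners, CDC42BPA at 1.07, CRK at 1.17, CRKL at 1.21 and VASP at -1.26 stayed past 2-fold. ROCK1 at 0.61, ROCK2 at 0.70, PPP1CB at 0.43, LIMS1 at 0.96, FLNC at -0.72 and SRC at -0.82 did not. The other called partners, RHOC, ACTN3, TRIP6, TNS2 and MRTFA, lay between -0.93 and -0.60. RHOC was called under 3 of the 11 other settings, TRIP6 under 4 and ACTN3 under 6. Whether GC content has a part in these differences was not tested.

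**Figure D5:**
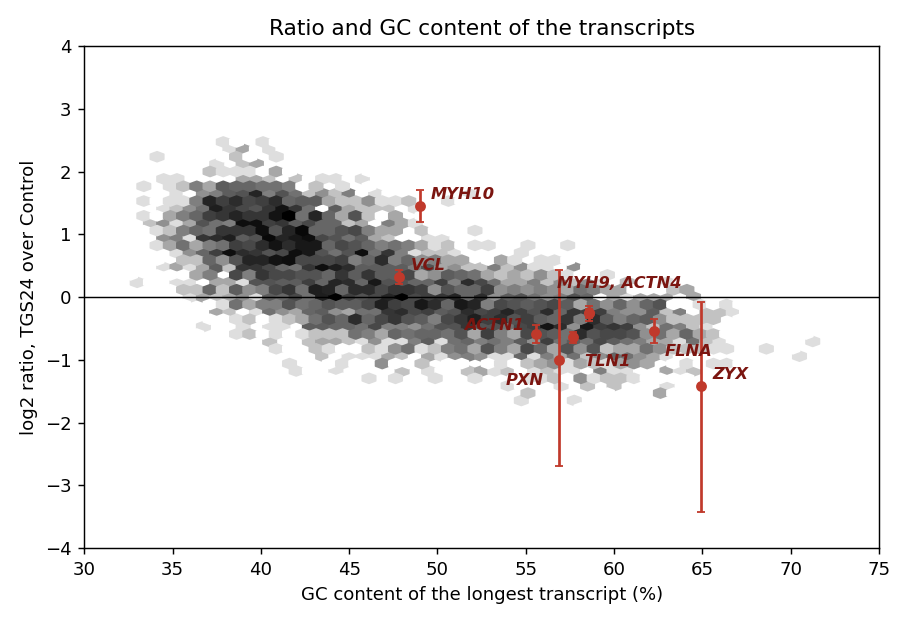
Log2 ratio of TGS24 over Control (vertical axis) against GC content of the longest transcript (horizontal axis, %), with genes of at least 100 reads as grey hexagons, darker where more genes lie, and the 9 genes as red points with 95% counting intervals. MYH10 lies above the bulk of genes of like GC content at 49.0%, while MYH9 and ACTN4, both at 58.6%, lie within it.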

How the data were processed

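RNA of 2 spheroid samples was extracted with Trizol and sequenced in pairs, per the labels' protocols. Without giving roles, the submitters' processing notes list STAR, Bowtie2 2.2.4, featureCounts 1.5.2, Trimmomatic and DESeq2, and hg19 as the build. The deposited values are a normalized signal, in which each library's read counts were divided by its size factor (1.03 in Control, 1.98 in TGS24). Dividing by the steps of 0.969 and 0.506 gave whole reads for 99.98% of values in both columns, within 1e-06. Of counts above 0, 75.3% and 73.5% were even, so intervals were computed on read pairs. The deposited fold (ratio) and log2 values, by the authors, are TGS24 over Control. They are quotients of the same normalized values, so they could check only the direction and not the size of a difference. None of the 9 genes is among the 900 genes the authors called. Of those 900, 326 were up and 574 down, against 1277 higher and 649 lower by the rule used here.

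In the table of all genes, 48 irregular rows were left out, none of them of the 9 genes. Recovered reads were scaled with TMM factors (edgeR 4.0.16, R 4.3.3, a ratio of 1.93 between the libraries), with a prior count of 2 and a minimum of 20 reads over both libraries. Intervals on log2 ratios and shares are 95% Clopper-Pearson, and those on ratios of ratios are exact conditional 95% intervals of an odds ratio. GC content, lengths, exon overlaps and coding sequences came from GENCODE v29 on GRCh38, by Ensembl identifier, and promoters from RefSeq. Named genes were the 9 and, per list, those past 2-fold (at most 4 in each direction) and the gene with most reads, except 1 item that is not reported here. Genes named outside that rule (TLN2, MYH14, MRTFB, PALLD, the neighbours AP3M1, CAPN12 and PXN-AS1, and markers that were not called) were chosen after their values were seen. So were pairs other than MYH10 with MYH9 and ACTN4 with ACTN1. The members and lists were chosen with earlier results of these data known. The design written beforehand assumed that tables might hold counts, and they hold normalized values. Scripts were tested on simulated data. Alternatives were other scalings, minimums, prior counts, GC and length centring, and intervals on reads.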

Additional observations from a re-analysis of the deposited data

How the results depend on the processing

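MYH10 was at least 2-fold higher under all 11 alternatives, with log2 ratios from 1.19 to 1.61, and VCL (0.13 to 0.48), TLN1 (-0.91 to -0.29), ACTN1 (-0.75 to -0.31) and FLNA (-0.80 to -0.13) kept their direction. MYH9 (-0.52 to 0.10) and ACTN4 (-0.42 to 0.09) changed sign only with GC centring. The count of the 9 genes at least 2-fold lower was 0 with median-of-ratios scaling, with no minimum of reads, with at least 100 reads (which leaves out ZYX and PXN) and with GC centring, and 2 with intervals on reads, which added PXN at -1.0 (-2.18 to -0.06). ZYX ranged from -1.56 to -1.03 where it was measured. The median of the 9 genes was -0.13 with GC centring. Over all genes, 410 were lower with at least 100 reads, where fewer genes were tested, and 535 were higher with GC centring. Median-of-ratios scaling moved the median of all genes by 0.13 on the log2 scale and dropping the minimum by 0.16. Apart from the counting limits stated, the cause was not tested. Depth limits ZYX and PXN, at under 20 reads in each library. No paired analysis was possible because each group held 1 library.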
